A study of Mus musculus with 8 samples.

Results

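The 8 genes followed here make, break down or restrain polyamines, measured in inguinal white adipose tissue (iWAT): Odc1, Oaz1, Oaz2, Azin1, Amd1, Srm, Sms and Sat1. They were taken by symbol from the expression tables, not by their values, and all 8 members were found among 17264 listed genes. All 8 reached a mean of 0.5 RPKM (reads scaled by gene length and by the depth of the library) in RNA-seq, and 7 of them did so in Ribo-seq. Amd1 was the exception.

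The tissue came from male C57BL/6 mice, 9 weeks old by the labels, which the study's methods describe as kept at 4 °C for 7 days before collection. Y1cKO mice were Ythdf1 flox/flox and carried Adipoq-Cre, so that Ythdf1, a reader of m6A-marked mRNA, was removed only in cells with an active adiponectin promoter. Y1CTL mice were Ythdf1 flox/flox without Cre, and both genotypes shared the floxed alleles and the cold. RNA-seq measured polyadenylated transcripts and Ribo-seq measured fragments protected by ribosomes (footprints), with 2 libraries per genotype and assay, 8 in all. The study's purpose in this pair of assays was to find mRNAs whose translation depends on YTHDF1.

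Polyamines (putrescine, spermidine and spermine) are small cations that bind RNA and support translation, and spermidine is the donor for the hypusine modification of the translation factor eIF5A. ODC1 makes putrescine from ornithine and is held down by antizymes (OAZ1, OAZ2), which bind it and send it to the proteasome, while the antizyme inhibitor AZIN1 binds antizymes and frees ODC1. AMD1 supplies the aminopropyl donor that the spermidine synthase SRM and the spermine synthase SMS use, and SAT1 acetylates spermidine and spermine for breakdown or export. Much of this control acts during translation: antizyme mRNAs need a ribosomal frameshift that polyamines stimulate, and the leaders of Odc1, Azin1 and Amd1 mRNAs hold elements that restrain their translation. In adipose tissue, polyamine turnover through SAT1 is known to affect energy expenditure.

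The best known of these elements is the short reading frame upstream of the Amd1 coding region, at which ribosomes are known from mammalian cells to stall when polyamines are plentiful. It is shown because Amd1 had the lowest footprint level of the 8 genes. In the RefSeq window of Amd1 (GRCm38.p6, minus strand, chr10:40302150-40302179, in the 5′ leader) the 30 bases around it are printed below, 5′ to 3′, with the 21 bases of the frame from its start codon through its stop codon in capitals.
Amd1 upstream reading frame: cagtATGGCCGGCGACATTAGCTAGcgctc
The frame had 6 codons before the stop and covered bases 14 to 34 after the annotated start. A search of the transcribed strand of the first 50 transcribed bases for a complete frame (ATG to an in-frame TAA, TAG or TGA) found one in 3856 of 32851 RefSeq windows (11.7%), and this exact frame was in 2 windows (0.00609%), those of Amd1 and of its copy Amd2. Of the 6 members with a window, only Amd1 held a complete frame there. These windows reach no further than 50 bases into a leader, while the expression tables list leaders of 489 bases for Odc1, 590 for Azin1, 328 for Amd1, 334 for Sms, 198 for Oaz2, 177 for Sat1, 117 for Srm and 74 for Oaz1. The leaders of Azin1 and Odc1 were at the 93.2nd and 89.4th percentile of listed genes in length.

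The RNA-seq libraries held 12211351 and 16429015 reads in Y1cKO and 3958284 and 4963613 reads in Y1CTL, and the Ribo-seq libraries held 7364523 to 11862838 reads. All 10 adipocyte markers were detected in every library, with a sum of 25270 and 23716 RPKM in Y1cKO and 20133 and 11961 RPKM in Y1CTL by RNA-seq. The sum of 10 beige or brown adipocyte markers was 434 and 1449 RPKM in Y1cKO and 1555 and 2896 RPKM in Y1CTL by RNA-seq. Both sums separated the genotypes in that assay, as did 47.6% of genes, but not by Ribo-seq. There the adipocyte sum was 73234 and 78186 RPKM in Y1cKO and 69524 and 101202 RPKM in Y1CTL. The beige or brown sum was 9958 and 7851 RPKM in Y1cKO and 10461 and 4095 RPKM in Y1CTL. Marker sums of other cells also differed between libraries, and between assays, where RPKM is also scaled to different lengths. The summed level of 15 lymphoid markers (of T cells, B cells and lymph node) was 877 to 1176 RPKM in the 4 Ribo-seq libraries, but 4.90 and 4.10 RPKM in Y1cKO RNA-seq against 3.14 and 321 RPKM in Y1CTL RNA-seq, where 1 and 2 of the markers were at 0 in Y1cKO and 9 and 0 in Y1CTL. The sum of 14 skeletal muscle markers was 283 and 3.12 RPKM in Y1cKO RNA-seq against 1.41 and 4.10 RPKM in Y1CTL RNA-seq, and 9.78 to 32.1 RPKM in Ribo-seq. Ythdf1 itself, which cells other than adipocytes keep, had 12.7 and 15.7 RPKM in Y1cKO against 17.3 and 16.0 RPKM in Y1CTL by Ribo-seq. By RNA-seq it had 7.17 and 7.98 RPKM in Y1cKO against 8.01 and 11.5 RPKM in Y1CTL. Neither difference passed the test in limma (log2 change -0.23, adjusted p = 1.00 by Ribo-seq, and -0.33, adjusted p = 0.587 by RNA-seq). The study floxed part of the gene, and which exons or cells the remaining reads came from was not tested. Fewer cells of a type and less RNA per cell cannot be told apart in such bulk tissue.

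The 8 genes spanned a wide range of levels, and their order differed between the assays. By Ribo-seq, over 4 libraries, the order was Oaz1, Sat1, Oaz2, Srm, Odc1, Azin1, Sms and Amd1, and the neighbours whose ranges overlapped were Oaz2 with Srm and Odc1 with Azin1. By RNA-seq the order was Oaz1, Odc1, Oaz2, Srm, Sat1, Azin1, Amd1 and Sms. There the ranges of each neighbouring pair from Odc1 to Azin1 overlapped, so that their order was not resolved beyond the spread of the libraries. Ribo-seq RPKM is per coding length and RNA-seq RPKM per transcript length, so levels are compared between genes only within an assay.

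**Figure D1:**
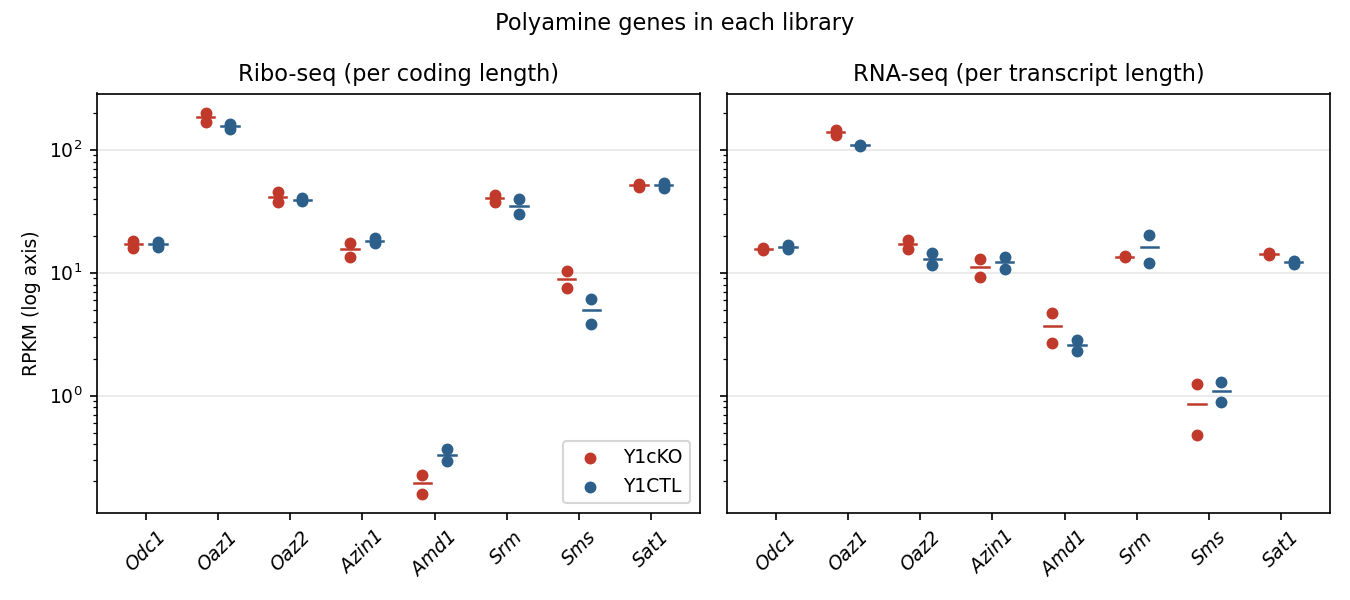
Levels of the 8 polyamine genes, RPKM on a log axis, by Ribo-seq (left) and RNA-seq (right), with a point for each library, Y1cKO left of Y1CTL, and a bar at the mean of 2 libraries. Oaz1 lay above the other members in both assays and Amd1 lay lowest by Ribo-seq, between 0.159 and 0.364 RPKM, while its RNA-seq level, 2.29 to 4.65 RPKM, lay above that of Sms.

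Odc1 (ENSMUSG00000011179), the rate-limiting enzyme, had 18.2 and 15.9 RPKM in Y1cKO and 16.1 and 17.9 RPKM in Y1CTL by Ribo-seq. By RNA-seq it had 15.2 and 15.9 RPKM in Y1cKO and 15.4 and 16.9 RPKM in Y1CTL. The genotypes overlapped in both assays, and with an SD of 1.17 RPKM around a mean of 17.01 RPKM over the 4 Ribo-seq libraries Odc1 was one of the steadiest members. The log2 change was 0.00 by Ribo-seq (95% CI -0.37 to 0.38, adjusted p = 1.00 from limma), so that a footprint change of more than 1.30-fold lies outside the interval.

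Oaz1 (ENSMUSG00000035242), the main antizyme, had 201 and 169 RPKM in Y1cKO and 162 and 148 RPKM in Y1CTL by Ribo-seq. Its transcripts had 145 and 131 RPKM in Y1cKO and 110 and 107 RPKM in Y1CTL. Both Y1cKO libraries were above both Y1CTL libraries in each assay, but the log2 changes, 0.25 by Ribo-seq (SE 0.15, adjusted p = 1.00) and 0.35 by RNA-seq (SE 0.19, adjusted p = 0.497), did not pass the test in limma. RNA-seq values of all genes were shifted toward Y1cKO by a median of 0.17, and with the libraries scaled to one median the RNA-seq change of Oaz1 was 0.18. The adipocyte marker sum was likewise above Y1CTL in both Y1cKO RNA-seq libraries, as were Oaz2 and Sat1, and its part in these values was not tested.

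Oaz2 (ENSMUSG00000040652), another antizyme, had 37.5 and 45.5 RPKM in Y1cKO and 37.9 and 40.7 RPKM in Y1CTL by Ribo-seq, with the genotypes overlapping. In RNA-seq it had 18.4 and 15.6 RPKM in Y1cKO and 14.5 and 11.5 RPKM in Y1CTL, without overlap, and the log2 change of 0.38 (SE 0.21, adjusted p = 0.501 from limma) was 0.22 with the libraries scaled to one median. Azin1 (ENSMUSG00000037458), the antizyme inhibitor, had 13.4 and 17.5 RPKM in Y1cKO and 17.4 and 19.0 RPKM in Y1CTL by Ribo-seq. Its transcripts had 13.0 and 9.20 RPKM in Y1cKO and 13.5 and 10.7 RPKM in Y1CTL. The genotypes overlapped in both assays for Azin1.

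Set against Odc1 within each library, Oaz1 had 11.04 and 10.6 times as many footprints per coding length in Y1cKO and 10.1 and 8.27 times as many in Y1CTL. The same ratio by RNA-seq was 9.504 and 8.28 in Y1cKO and 7.10 and 6.34 in Y1CTL. The sum of the antizymes Oaz1 and Oaz2 over the sum of their partners Odc1 and Azin1 was 7.54 and 6.405 in Y1cKO and 5.97 and 5.11 in Y1CTL by Ribo-seq, and 5.78 and 5.86 in Y1cKO and 4.29 and 4.30 in Y1CTL by RNA-seq. Antizyme footprints and transcripts thus outnumbered those of Odc1 and Azin1 per length in all 8 libraries, and both ratios were above Y1CTL in both Y1cKO libraries of each assay. Oaz1, the largest term in both ratios, by itself separated the genotypes in this way in each assay, so the ratios are not separate results. Such a separation held for 15.4% of genes by Ribo-seq and 36.9% by RNA-seq. These ratios were not tested: an exact permutation test of 2 libraries against 2 cannot reach 0.05. Footprints on an antizyme mRNA do not show how many ribosomes passed the frameshift.

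**Figure D2:**
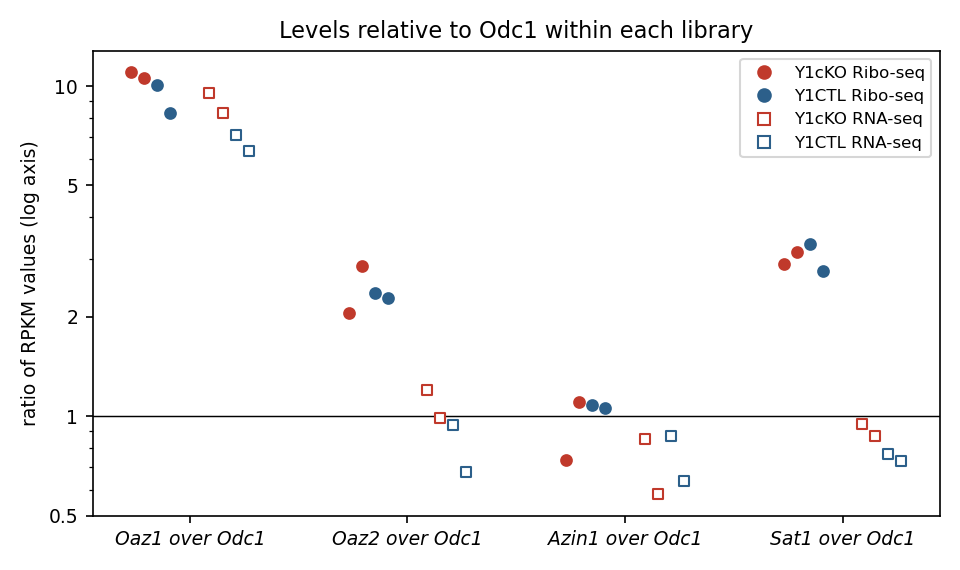
Ratios of RPKM values to Odc1 within each library, on a log axis, for Oaz1, Oaz2, Azin1 and Sat1; filled circles are Ribo-seq and open squares RNA-seq, with Y1cKO in red left of Y1CTL in blue. Oaz1 lay 6.34 to 11.04 times above Odc1 in all 8 libraries, while Sat1 was 2.75 to 3.33 times Odc1 by Ribo-seq and 0.733 to 0.947 times Odc1 by RNA-seq.

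Amd1 (ENSMUSG00000075232), S-adenosylmethionine decarboxylase, stood apart. It had 3 and 2 footprint reads in Y1cKO and 6 and 3 in Y1CTL, 14 reads in the 4 Ribo-seq libraries together. This came to 0.227 and 0.159 RPKM in Y1cKO and 0.364 and 0.293 RPKM in Y1CTL. The pooled level over the 4 libraries was 0.267 RPKM, with an exact Poisson 95% interval of 0.146 to 0.448 RPKM that covers counting error only. Its transcripts were well covered, with 182 and 141 reads in Y1cKO and 29 and 45 reads in Y1CTL, or 4.65 and 2.68 RPKM in Y1cKO and 2.29 and 2.83 RPKM in Y1CTL. The highest of these, 4.65 RPKM, was in the Y1cKO RNA-seq library with 283 RPKM of muscle markers, which also had the highest sum of fibroblast and progenitor markers (904 RPKM, against 194 to 303 RPKM among the remaining RNA-seq libraries) and of erythroid markers (898 RPKM, against 275 to 616 RPKM). Among RNA-seq libraries it was also highest in adipocyte (25270 RPKM), macrophage (112 RPKM) and smooth muscle and pericyte (129 RPKM) markers. It was lowest in beige or brown markers (434 RPKM). The part of these cells in the Amd1 value was not tested.

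The ratio of mean Ribo-seq to mean RNA-seq RPKM of Amd1 was 0.0527 in Y1cKO and 0.128 in Y1CTL. Over all libraries it was 0.0839, at the 2.59th percentile of 12435 genes tested in RNA-seq, of which 322 had a lower ratio, and the median gene among those tested in both assays had 2.001. At a ratio of 1, 163 footprint reads would have been counted for its transcript level, against the 14 observed. Odc1 had 44.2 to 99.9 times the footprint level of Amd1, but 3.28 to 6.76 times its transcript level. The difference between genotypes in Amd1 footprints was not detectable at this depth, since the Poisson intervals of the Y1cKO libraries (0.0468 to 0.664 and 0.0193 to 0.576 RPKM) and of the Y1CTL libraries (0.134 to 0.793 and 0.0605 to 0.857 RPKM) overlapped. With no minimum applied, limma gave Amd1 a translational efficiency (TE, footprints over transcripts) of -2.89 on the log2 scale relative to the scaled median (95% CI -3.33 to -2.45, adjusted p = 1.16e-05), and a genotype change of -0.67 that did not pass the test (adjusted p = 0.655).

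Amd1 is also the member with the most sequence copies when these are counted by name. RefSeq lists 7 pseudogenes with symbols of the form Amd-ps besides Amd2, against 1 each named after Oaz1, Oaz2 and Sms and 0 named after the others. None of these pseudogenes is in the expression tables, and copies under other names were not counted. Amd2 (ENSMUSG00000063953) had 0 footprint reads in all 4 Ribo-seq libraries, which allows up to 0.252 to 0.407 RPKM per library at 3 reads, and 5 and 1 RNA-seq reads in Y1cKO and 0 in both Y1CTL libraries. How the counting treated reads that match several copies is not given in the sources used here, so the low Ribo-seq value of Amd1 is uncertain. The coding length listed for Amd1, 1389 bases, is also longer than the 1002 bases listed for Amd2. Over 1002 bases the Amd1 ratio would be 0.116. Whether the counting took in footprints on the upstream frame is likewise not given.

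Srm (ENSMUSG00000006442), spermidine synthase, had 37.7 and 42.9 RPKM in Y1cKO and 29.96 and 40.02 RPKM in Y1CTL by Ribo-seq. Its transcripts had 13.3 and 13.6 RPKM in Y1cKO and 20.2 and 12.05 RPKM in Y1CTL. The genotypes overlapped in both assays, and the Y1CTL RNA-seq libraries, with 107 and 80 reads, were the most spread.

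Sms (ENSMUSG00000071708), spermine synthase, had the largest footprint difference of the 7 members tested. Its footprints had 7.47 and 10.4 RPKM in Y1cKO and 6.07 and 3.83 RPKM in Y1CTL, from 78 and 103 reads in Y1cKO and 79 and 31 reads in Y1CTL. Both Y1cKO libraries lay above both Y1CTL libraries. The log2 change was 0.80 (SE 0.27, 95% CI 0.16 to 1.45), a 1.75-fold difference at the 99.5th percentile of all genes tested, with an unadjusted p of 0.0219 and an adjusted p of 1.00 from limma, so it did not pass the test. Leaving out Y1CTL replicate 2 gave 0.50, and leaving out Y1CTL replicate 1 gave 1.10.

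The transcripts of Sms did not show this difference. By RNA-seq it had 1.23 and 0.475 RPKM in Y1cKO and 0.884 and 1.30 RPKM in Y1CTL, from 56 and 29 reads in Y1cKO and 13 and 24 reads in Y1CTL, and the genotypes overlapped (log2 change -0.28, 95% CI -1.46 to 0.90, adjusted p = 0.815 from limma). The ratio of mean footprint to mean transcript level was 10.4 in Y1cKO and 4.53 in Y1CTL. Over every pairing of libraries it ranged from 6.05 to 21.9 in Y1cKO and from 2.95 to 6.86 in Y1CTL, so the ranges overlapped. The TE change of 1.08 (95% CI -0.12 to 2.29, unadjusted p = 0.0714, adjusted p = 0.563 from limma) did not pass the test. Each TE fit without a replicate dropped the Ribo-seq and the RNA-seq library of that number together. The TE change was 0.44 without Y1cKO replicate 2. It was 0.59 without Y1CTL replicate 2, whose RNA-seq library had 321 RPKM of lymphoid markers. It was 1.72 without Y1cKO replicate 1 and 1.57 without Y1CTL replicate 1, and the adjusted p of these 4 fits was 0.130 to 1.00. Srm had 5.05 and 4.13 times the footprint level of Sms in Y1cKO and 4.94 and 10.4 times in Y1CTL.

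Sat1 (ENSMUSG00000025283), the enzyme that starts polyamine breakdown, had 52.6 and 49.9 RPKM in Y1cKO and 53.5 and 49.1 RPKM in Y1CTL by Ribo-seq. By RNA-seq it had 14.4 and 13.8 RPKM in Y1cKO and 11.8 and 12.4 RPKM in Y1CTL. Footprints overlapped between genotypes, with a log2 change of 0.00 in size (95% CI -0.32 to 0.32), while both Y1cKO RNA-seq libraries were above both Y1CTL libraries. That RNA-seq change, 0.21 (adjusted p = 0.624 from limma), was 0.05 with the libraries scaled to one median.

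TE, here footprints per coding length over transcripts per transcript length, separated the genes into those above and those below the typical gene. Sms, Sat1, Oaz2 and Srm had a TE above the scaled median of the tissue, Oaz1 and Odc1 had a TE below it, and Azin1 did not pass the test. These 6 of 7 members tested compare with 73.2% of all 11792 genes tested, since most genes differ from the median gene by this measure (39.6% called higher and 33.6% called lower, and 75.3% in either direction at an unadjusted p under 0.05, where the same 6 members passed). The members were called about as often as other genes. The median of the 7 members was 0.50 on the log2 scale and that of all genes 0.11.

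Sat1 had a log2 TE of 1.10 (95% CI 0.87 to 1.33, adjusted p = 4.20e-05 from limma), or 2.14 times the scaled median, at the 77.0th percentile of genes. Sms had 1.47 (95% CI 0.90 to 2.03, adjusted p = 9.50e-04), at the 84.4th percentile. Odc1 had -0.74 (95% CI -0.999 to -0.473, adjusted p = 6.64e-04), or 0.600 times the scaled median, at the 26.4th percentile. Odc1, which begins synthesis, thus had a TE below the scaled median, and Sat1, which begins breakdown, had one above it. Srm and Sms, also enzymes of synthesis, lay on the side of Sat1. TE is a density per coding length and not a number of footprints per transcript. The coding region of Sat1 is short (534 bases, at the 9.51th percentile of listed genes).

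The other calls were less firm. Oaz2 had 0.58 (95% CI 0.29 to 0.87, adjusted p = 0.00366), and the call was lost without Y1cKO replicate 2 (adjusted p = 0.0721). Srm had 0.50 (95% CI 0.06 to 0.94, adjusted p = 0.0425) and Oaz1 had -0.37 (95% CI -0.65 to -0.09, adjusted p = 0.0239). Both calls were lost without Y1cKO replicate 1, without Y1cKO replicate 2 or without Y1CTL replicate 2 (adjusted p 0.0639 to 0.197 for Oaz1 and 0.110 to 0.190 for Srm), with Srm at 0.22 without Y1CTL replicate 2. Azin1 had -0.31 (95% CI -0.66 to 0.04, adjusted p = 0.0937) and was called lower without Y1CTL replicate 2 (-0.41, adjusted p = 0.04998). Within the antizyme system, Oaz1 had 3.63 to 5.35 times the footprint level of Oaz2 but 7.54 to 9.33 times its transcript level, with no overlap of the ranges.

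Because the lymphoid markers differed between the assays, the ratios were also set over each RNA-seq library alone, relative to the median gene. Amd1 then had 0.0228 to 0.0653 of the median gene's ratio, Odc1 0.478 to 0.614, Azin1 0.613 to 0.845 and Oaz1 0.642 to 0.707. Oaz2 had 1.23 to 1.63, Sat1 1.87 to 1.97, Srm 0.786 to 1.66 and Sms 1.81 to 9.45. Each member other than Srm kept its side of the median gene over every RNA-seq library, including that of Y1CTL with lymphoid markers. Other markers differed between the assays too, though endothelial and erythroid sums overlapped. Macrophage markers summed to 1394 to 1747 RPKM in Ribo-seq but 77.6 to 112 RPKM in RNA-seq. Fibroblast and progenitor markers summed to 1750 to 2954 RPKM in Ribo-seq but 194 to 904 RPKM in RNA-seq. No RNA-seq library thus matched Ribo-seq in these markers. The part of cell makeup in the side or size of the members' ratios was not tested.

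**Figure D3:**
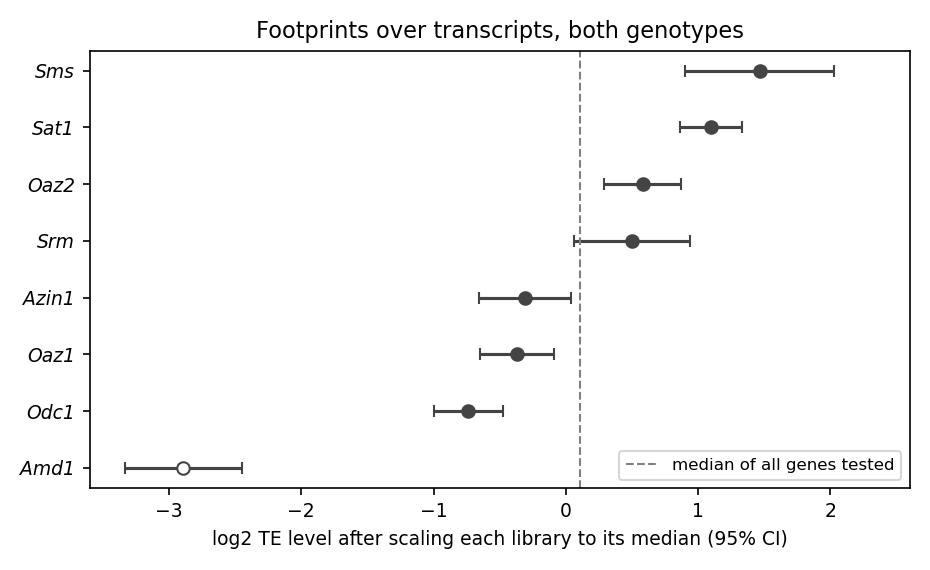
TE level of the polyamine genes over both genotypes (points, log2 footprints over transcripts after scaling each library to its median; lines, 95% CI from limma; dashed line, median of all genes tested, 0.11). Sms and Sat1 lay at 1.47 and 1.10 and Odc1 at -0.74; Amd1 (open point, -2.89) was under the minimum and comes from a fit of all genes without it.

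Between genotypes, no member passed the test in either assay or in TE, which with 2 libraries a group does not show that the genotypes were alike. By limma at an adjusted p under 0.05, 0 of 7 members were called in Ribo-seq against 0.0% of 12602 genes, 0 of 8 in RNA-seq against 0.0% of 12435 genes and 0 of 7 in TE against 0.0% of 11792 genes, and limma-voom on the recovered reads also called 0 genes in each. At an unadjusted p under 0.05 the counts were 1 member, Sms, in Ribo-seq against 2.75% of genes (347), 0 members in RNA-seq against 11.8% (1468) and 0 members in TE against 8.66% (1021). The genotypes did not overlap for 2 of 7 members in Ribo-seq, Oaz1 and Sms, against 29.5% of genes, and for 3 of 8 in RNA-seq, Oaz1, Oaz2 and Sat1, against 47.6%. These shares are near the background.

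The median log2 change of the members was 0.07 by Ribo-seq against 0.01 for all genes, and 0.08 by RNA-seq against 0.17. For TE it was -0.10 against -0.17, and with libraries scaled to one median 0.05 against -0.02. The members' TE changes on the scaled values were 0.21 for Odc1, 0.05 for Oaz1, -0.15 for Oaz2, 0.04 for Azin1, 0.57 for Srm, 1.24 for Sms and -0.06 for Sat1. The intervals of the unscaled TE changes covered 0 for all 7 members and reached from -0.91 (Oaz2) to 2.29 (Sms).

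**Figure D4:**
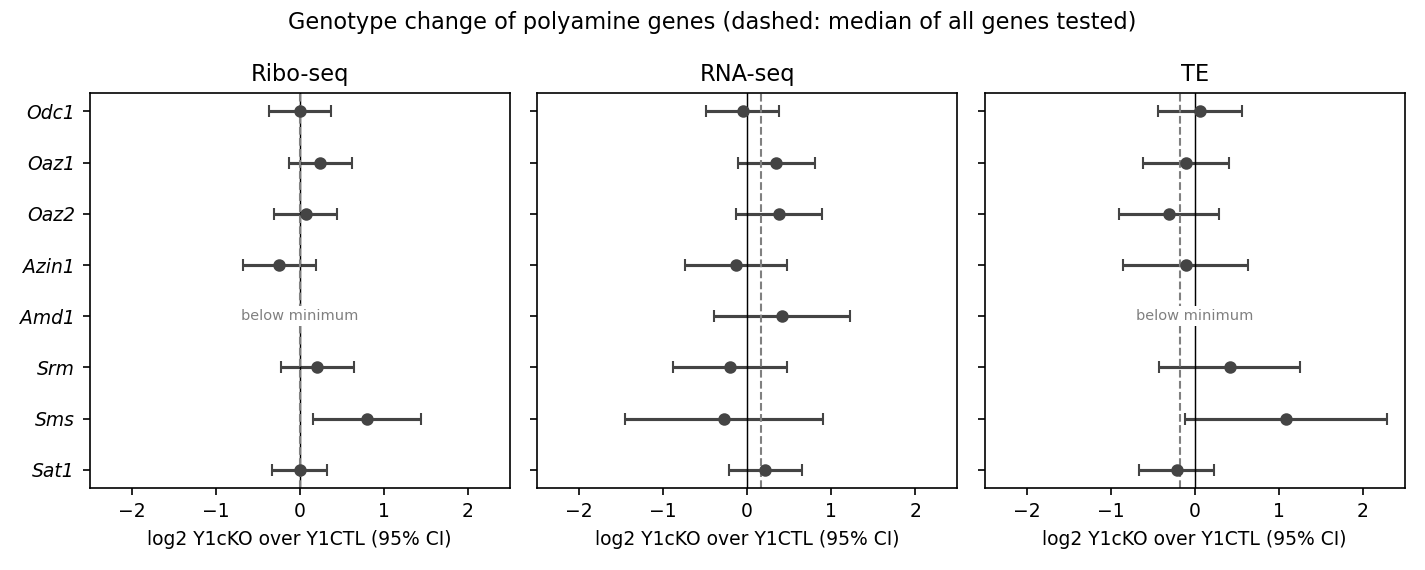
Log2 change of each polyamine gene, Y1cKO over Y1CTL, by Ribo-seq, RNA-seq and TE (points; lines, 95% CI from limma; dashed line, median of all genes tested). Only the Ribo-seq interval of Sms (0.16 to 1.45) lies clear of 0, with an adjusted p of 1.00, and Amd1 was under the minimum for Ribo-seq and TE.

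Around these genes, 51 others of polyamine metabolism and its control were grouped by role, of which 47 were listed and 40 were tested by Ribo-seq. Between genotypes 22 lay above 0 and 18 below 0 by Ribo-seq, with a median of 0.02, and 0 passed the test in Ribo-seq, RNA-seq or TE. By TE level, 20 of 37 tested were called higher and 6 lower than the scaled median, with a median of 0.49, against 39.6% called higher and 33.6% lower among all 11792 genes, whose median was 0.11; the counts by role that follow are from lists of 3 to 7 genes and stand against the same shares. For methylthioadenosine salvage, which recovers the sulfur by-product of SRM and SMS, 6 of 7 genes were called higher and 0 lower, with a median of 1.43, and its leading genes Adi1 and Apip had a log2 TE of 1.43 and 1.45. For ornithine supply 2 of 3 tested genes were called higher, with Oat, ornithine aminotransferase, at 2.02 and Aldh18a1, which makes the proline and ornithine precursor, at 1.02.

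The list for S-adenosylmethionine supply also held the enzyme that clears S-adenosylhomocysteine and its homologue Ahcyl1, and 3 of its 4 tested genes were called higher. Mat2a, the synthetase, had 104 and 129 RPKM in Y1cKO and 115 and 140 RPKM in Y1CTL by Ribo-seq and a TE near the median (0.22, adjusted p = 0.120 from limma), and Ahcyl1, a homologue of the enzyme that clears S-adenosylhomocysteine, had 0.78. Polyamine catabolism had 2 genes called higher and 2 lower of 6, with Aoc3, a vascular and adipocyte amine oxidase, at -0.15 and Aldh9a1, an aldehyde dehydrogenase, at 0.49. Polyamine transport had 3 higher and 3 lower of 7. Cav1, caveolin, had 1.17, and Slc3a2, the heavy chain of an amino acid transporter, had 1.03. Slc3a2 footprints were 113 and 114 RPKM in Y1cKO and 150 and 142 RPKM in Y1CTL without overlap. By Ribo-seq, 14.1% of all genes tested likewise lay lower in both Y1cKO libraries. The log2 change of Slc3a2, -0.36, did not pass the test (adjusted p = 1.00 from limma).

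Eif5a, whose product carries hypusine made from spermidine, had 922 and 942 RPKM in Y1cKO and 969 and 918 RPKM in Y1CTL by Ribo-seq and a log2 TE of 1.95 (adjusted p = 6.63e-06 from limma). Dohh, the hydroxylase that completes hypusine, had 17.2 and 16.7 RPKM in Y1cKO and 17.8 and 15.7 RPKM in Y1CTL and a TE of -0.61 (adjusted p = 0.00278). Of the 4 genes of the hypusine pathway, 2 were called higher and 1, Dohh, lower. Azin2, another antizyme inhibitor, had 2.596 to 3.21 RPKM by Ribo-seq, below every Azin1 value. Of the factors that act on Odc1 transcription, Max and its partner Mxd4 had a TE of 0.34 (adjusted p = 0.0499) and -0.01, and 2 of the 5 genes were called higher.

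Likeness of profile was measured as the Euclidean distance of log2(RPKM + 0.5) over 8 libraries, centred within each assay. Nearest to Odc1 were 1810030O07Rik (0.124), Sp1 (0.138) and Wdr43 (0.154), against a median distance of 0.70 over 11791 genes. Nearest to Sat1 were Ppia (0.0633), Aar2 (0.0780) and Tmem209 (0.0964), against a median of 0.63, and nearest to Amd1 were Mapk7 (0.228), Inpp4a (0.254) and Jag2 (0.272), against 0.88. Profiles of steady genes such as Odc1 and Sat1 are near many others by this measure.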

How the data were processed

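The authors mapped reads with HISAT2 2.2.1 to mm8, per the labels and the submitters' processing notes, which also name DESeq2 with no role stated, and deposited RPKM values for each library. The read counter, the gene annotation and the use of strand were not given in the sources used here, so reads of antisense or overlapping genes and of near-identical copies may be mixed. RPKM was per transcript length for RNA-seq and per coding length for Ribo-seq. Each value (100%) came to a whole number of reads within 0.01 read, so reads were recovered. Genes that a Ribo-seq table does not list were set to 0, and 24 symbols that had become dates were restored by identifier (17255 of 17264 matched).

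Values were set to log2(RPKM + 0.5), so fold changes of low genes are understated, and were tested by limma 3.58.1 under R 4.3.3 with its intensity trend in genes whose mean was 0.5 RPKM or more, adjusting by Benjamini-Hochberg over all of them. TE change was the interaction of assay and genotype over 8 libraries. TE level was Ribo-seq minus RNA-seq after scaling each library to its median, against 0. The labels do not state that replicates came from separate animals, so p-values measure the spread between these libraries. The chi-square between replicates was 12.3 to 36.2 for each degree of freedom, so none was taken as a copy. The tests were checked on simulated data and recovered the size of the shifts. The simulated spread was set in advance, wider for RNA-seq than for Ribo-seq, and not taken from these libraries. At log2 shifts of 1 and 2 the Ribo-seq test called 53% and 100% of the changed genes and the TE level test 57% and 80.6%. The RNA-seq test called 0% and 24%, and the TE change test 0% at both shifts. With that spread, a lack of calls in RNA-seq and TE change carries little information.

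The members, the gene lists and the tests were chosen with earlier results of these data known. Named beside the members were Ythdf1, Amd2, the 2 genes with the most footprints in each list and the 3 nearest profiles of Odc1, Amd1 and Sat1. Alternatives covered the pseudocount, minimum, scaling, trend, library weights, voom, a replicate block and each replicate left out. Crossed pairs, pairs by column name and the shorter coding length for Amd1 were added after the data were seen. Sequences and copies came from RefSeq tables (GRCm38.p6). Other software was Python 3.11.15 with numpy 2.4.6, pandas 2.3.3, scipy 1.17.1 and matplotlib 3.10.9.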

Additional observations from a re-analysis of the deposited data

How the results depend on the processing

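No member was called between genotypes in Ribo-seq, RNA-seq or TE under any alternative. For RNA-seq and TE this is no sign of stability, since in the simulated data these tests called few or none of the changed genes. The Ribo-seq test called 53% and 100% of them there, but the simulated spread was not taken from these libraries. Stability is therefore not shown for Ribo-seq either. The TE level calls of Sat1, Sms and Odc1 were kept under each alternative run, except that Odc1 was 0.10 with no scaling (adjusted p = 0.429). With no scaling the TE of Oaz1 was 0.46 and of Azin1 0.52, the median of all genes no longer being near 0, and 7449 genes were called higher and 1703 lower, against 4671 and 3959. With a minimum of 5 RPKM, which tests fewer genes and leaves out Sms, they were 2558 and 2466, Azin1 was called lower (adjusted p = 0.00582) and Srm was not called (0.22, adjusted p = 0.271). Srm also lost its call with a pseudocount of 0.1 (adjusted p = 0.0536) or no trend (0.0544), and Oaz1 with no minimum (0.143) or library weights (0.0505); the cause was not tested. With the libraries scaled to one median, the Ribo-seq change of Odc1 was -0.0032 and the TE changes of Oaz1 and Azin1 were 0.0547 and 0.0436.

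Leaving out each replicate in turn, which leaves a lone library assumed to vary like the others, gave 0 to 43 genes called higher and 0 to 13 lower in Ribo-seq, 0 to 265 and 0 to 400 in RNA-seq, and 0 to 508 and 0 to 455 in TE, the highest counts without Y1CTL replicate 1 except for the 13, without Y1CTL replicate 2. The Ribo-seq change of Odc1 ranged from -0.0880 to 0.0968, of Oaz2 from -0.0679 to 0.21 and of Sat1 from -0.0620 to 0.0617. The RNA-seq change of Odc1 ranged from -0.12 to 0.0088, of Azin1 from -0.37 to 0.11, of Srm from -0.57 to 0.16 and of Sms from -0.70 to 0.14. The TE change of Odc1 ranged from -0.0620 to 0.18, of Azin1 from -0.54 to 0.32 and of Srm from -0.15 to 0.98.

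The labels give replicate numbers in each group, but the value columns of the Y1cKO RNA-seq tables name the opposite number, and deviations from the group means correlated between assays within a number at -0.24 in Y1cKO and -0.14 in Y1CTL across 11792 genes. A replicate block called 0 genes between genotypes, and for TE level 4434 higher and 3700 lower, with the calls of Oaz1 (adjusted p = 0.0574) and Srm (adjusted p = 0.0846) lost. Crossed pairs called 0 genes for TE change and 4719 higher and 3916 lower for TE level, and pairs by column name 0, 4570 and 3806, with the call of Srm lost (adjusted p = 0.0820). Depth limits Amd1, with 14 footprint reads, and Sms, with 13 and 24 RNA-seq reads in Y1CTL.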
